A study of Mus musculus with 4 samples.

Results

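The Zfp genes are the mouse genes named for zinc finger proteins, and 321 of them were followed in mouse embryonic stem cells (mESCs) with and without Npac. They were taken from the 56748 genes of the authors' count table as every protein-coding gene whose symbol is Zfp followed by a number, with Zfp42 and the genes of chromosomes 8, 11, X and Y left out. The rule used no expression value. Of the 321 genes, 308 had at least 10 reads in at least 2 libraries and were tested, 13 did not reach that level, and 2 of those 13 had no reads at all. Of the tested genes, 4 reached it in the WT libraries alone and 2 in the KO libraries alone. Zfp683, with 10 and 22 reads in WT cells and 8 and 9 in Npac KO cells, and Zfp872, with 0 and 1 reads in WT cells and 11 and 33 in Npac KO cells, were just above that limit. Zfp663 (4, 14, 6 and 8 reads in WT1, WT2, KO1 and KO2) and Zfp831 (3, 7, 3 and 15 reads) were just below it.

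RNA-seq was performed on total RNA of E14 cells, a mouse ES cell line, kept without feeder cells in serum and LIF on gelatin. The WT group held 2 libraries of unedited cells (WT1 and WT2), and the Npac KO group held 1 library from each of 2 clones (KO1 and KO2) made with CRISPR/Cas9 guides to exon 3 of Npac and puromycin selection. Guides, selection and cloning cannot be told apart from the loss of Npac, and each clone is 1 line with its own history. The sources used here do not say whether WT1 and WT2 came from separate cultures, so p-values measure the spread between these libraries. The total count lay between 15850805 and 16965120 reads per library. Npac, listed as Glyr1, had 3961 and 3115 reads in WT cells and 744 and 888 reads in Npac KO cells (log2 fold change -2.14). Of 7 ES cell marker genes, which include Pou5f1 (Oct4), Nanog and Sox2, none was called. Their summed level was 6103 and 5035 CPM (read counts scaled to library size) in WT cells and 4749 and 4491 CPM in Npac KO cells. Both KO libraries lay below both WT libraries for Pou5f1, Sox2, Esrrb and Tdgf1 (log2 fold changes -0.43, -0.53, -0.79 and -0.59). They lay above for Dppa5a and Utf1 (0.27 and 0.48), and for Nanog the groups overlapped. By RT-qPCR, the paper reported reduced Oct4 and Sox2 mRNA. Of 7 fibroblast markers, Col1a1 rose (85 and 168 reads in WT cells, 285 and 326 in Npac KO cells), Col1a2 (3, 5, 18 and 16 reads in WT1, WT2, KO1 and KO2) and Thy1 (458, 858, 397 and 534 reads) were not called, Lum and Postn had at most 1 read in a library, and Col3a1 and Dcn had none. The 7 summed to 35.7 and 58.9 CPM in WT against 45.04 and 50.5 CPM in KO cells, and the part of such cells in the results was not tested.

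Most Zfp genes encode proteins that bind DNA through arrays of C2H2 zinc fingers. A large share of them also carry a KRAB box, which recruits Trim28 (KAP1) and, through it, the histone methyltransferase Setdb1, so that H3K9me3 is laid down at the bound site. KRAB zinc finger genes lie in tandem clusters that grew by duplication, and in ES cells many of their proteins bind retroelements and keep them silent, while Zfp57 and Zfp445 protect imprinted regions. Npac reads H3K36me3, the mark of transcribed gene bodies. Other genes with a Zfp symbol act on RNA, on ribosomes or within chromatin complexes and share little with the KRAB family but the name.

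In the reference coding sequences (GENCODE), 192 of the 321 genes matched a KRAB A box pattern and 129 did not. The number of C2H2 fingers was 0 to 3 in 41 genes, 4 to 11 in 147 genes and 12 or more in 133 genes. By position in the authors' files, 220 genes formed 26 clusters, a cluster being at least 3 Zfp genes on 1 chromosome whose starts follow each other within 1 Mb, and 101 genes lay outside them. The transcripts of 25 genes had a near-identical copy elsewhere (at least 95% identity over at least 60% of the transcript), and reads of such genes may be split between the copies or assigned to the wrong one. The cover was counted on each gene's own transcript, so a gene can be the copy of another without being among the 25.

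The promoters of the genes that rose in the chromosome 4 cluster are shown first, because this cluster held 7 of the 19 Zfp genes called higher in Npac KO cells. The windows are from RefSeq (GRCm38.p6), run 5′ to 3′ in the direction of the gene, and take in the annotated start. They cover 5 of the 7 genes. Of the others, Zfp982 (chr4:147442864-147443163) has a window that holds neither run marked here, and Zfp978 has no window in the table. Capitals mark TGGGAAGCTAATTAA, the longest run of letters the 5 windows share, and TATTGGGCGGGT, the longest shared run that holds a GC box (GGGCGG). The run with the GC box begins between 68 and 96 bases before the annotated start.
Zfp268 (chr4:145584950-145585249, plus strand): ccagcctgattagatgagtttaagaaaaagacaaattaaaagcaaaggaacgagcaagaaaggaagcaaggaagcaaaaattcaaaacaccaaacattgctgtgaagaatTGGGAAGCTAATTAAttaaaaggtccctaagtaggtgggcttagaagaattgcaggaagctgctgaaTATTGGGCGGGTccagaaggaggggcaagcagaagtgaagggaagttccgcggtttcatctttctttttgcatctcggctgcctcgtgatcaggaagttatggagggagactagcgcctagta
Zfp980 (chr4:145670447-145670746, plus strand): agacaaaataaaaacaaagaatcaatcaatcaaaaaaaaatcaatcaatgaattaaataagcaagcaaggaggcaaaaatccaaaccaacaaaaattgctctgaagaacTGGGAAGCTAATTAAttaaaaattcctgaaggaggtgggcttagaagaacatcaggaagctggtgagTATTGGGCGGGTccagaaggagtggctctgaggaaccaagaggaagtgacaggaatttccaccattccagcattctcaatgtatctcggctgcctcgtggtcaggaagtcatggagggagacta
Zfp600 (chr4:146156577-146156876, plus strand): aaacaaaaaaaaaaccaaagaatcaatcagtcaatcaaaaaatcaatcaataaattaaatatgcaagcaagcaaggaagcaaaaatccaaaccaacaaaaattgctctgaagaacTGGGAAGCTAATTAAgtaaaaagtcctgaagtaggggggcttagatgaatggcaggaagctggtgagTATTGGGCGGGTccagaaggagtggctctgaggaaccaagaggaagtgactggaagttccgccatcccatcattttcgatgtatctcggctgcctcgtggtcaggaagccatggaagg
Zfp981 (chr4:146514670-146514969, plus strand): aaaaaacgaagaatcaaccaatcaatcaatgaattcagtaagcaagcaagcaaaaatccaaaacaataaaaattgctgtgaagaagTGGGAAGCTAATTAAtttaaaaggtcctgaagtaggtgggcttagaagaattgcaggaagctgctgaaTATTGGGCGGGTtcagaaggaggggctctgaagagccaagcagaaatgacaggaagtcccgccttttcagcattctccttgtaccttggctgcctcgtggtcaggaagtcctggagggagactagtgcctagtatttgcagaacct
Zfp984 (chr4:147809739-147810038, minus strand): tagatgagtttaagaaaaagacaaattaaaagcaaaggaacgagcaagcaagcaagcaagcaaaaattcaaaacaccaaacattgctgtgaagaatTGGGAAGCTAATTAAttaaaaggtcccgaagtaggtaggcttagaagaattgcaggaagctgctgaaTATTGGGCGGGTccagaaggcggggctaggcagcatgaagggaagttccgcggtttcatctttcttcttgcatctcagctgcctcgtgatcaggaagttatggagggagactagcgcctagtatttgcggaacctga

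The 5 windows were alike beyond these runs, with an identity between 66.4% for Zfp600 and Zfp984 and 88.6% for Zfp980 and Zfp600. Searched on both strands in 32851 RefSeq windows of this length, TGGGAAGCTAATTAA was in 12 (0.0365%), and 10 of the 12 belonged to Zfp genes of the chromosome 4 cluster. TATTGGGCGGGT was also in 12 windows, of which 8 belonged to that cluster and 2 to Zfp genes elsewhere. Within the cluster, 13 of the 19 genes had a window. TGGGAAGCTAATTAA was in 5 of the 6 windows of genes called higher and in 5 of the 7 windows of genes not called, and TATTGGGCGGGT was in 5 of 6 and 3 of 7. The runs were found in the windows of the called genes, so their frequency there is a description, and the genes that were not called held them too. Zfp990 had no window in the table.

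A pair of windows from chromosome 13 is shown because their genes, Zfp998 and Zfp429, had the largest fall and, among genes with a mean of at least 50 reads, the largest rise of all Zfp genes. Capitals mark CCAAT in the first and GGGCGG in the second, each on either strand, and neither window holds a run of the chromosome 4 promoters.
Zfp998 (chr13:66441069-66441368, minus strand): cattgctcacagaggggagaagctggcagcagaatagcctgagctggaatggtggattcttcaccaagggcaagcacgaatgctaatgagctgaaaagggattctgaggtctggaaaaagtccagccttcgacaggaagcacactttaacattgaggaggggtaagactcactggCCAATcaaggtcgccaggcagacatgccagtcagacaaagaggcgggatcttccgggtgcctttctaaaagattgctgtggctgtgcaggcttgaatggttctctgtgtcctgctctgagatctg
Zfp429 (chr13:67399718-67400017, minus strand): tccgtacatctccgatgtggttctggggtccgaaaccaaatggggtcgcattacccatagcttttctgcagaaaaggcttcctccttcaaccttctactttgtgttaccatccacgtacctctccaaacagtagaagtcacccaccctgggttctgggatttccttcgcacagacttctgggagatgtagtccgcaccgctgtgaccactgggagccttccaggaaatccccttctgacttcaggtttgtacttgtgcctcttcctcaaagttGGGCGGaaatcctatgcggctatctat

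Between WT and Npac KO cells, 19 Zfp genes were higher and 28 were lower, at a Benjamini-Hochberg adjusted p under 0.05 from edgeR's quasi-likelihood test over all 18310 genes tested and a fold change over 1.5. These are 6.17% and 9.09% of the 308 Zfp genes tested, and over all genes tested the shares were 10.9% higher and 10.7% lower. The share called higher was thus below that of all genes, and the share called lower was near it. In 61 Zfp genes (19.8%) both KO libraries lay above both WT libraries, against 33.1% of all genes, and in 118 (38.3%) both lay below, against 32.5%. In the other 129 the groups overlapped. The median log2 fold change of the 308 genes was -0.22, with 196 negative and 112 positive values, and it was 0.0010 over all genes. It was -0.054 over the 11911 other protein-coding genes of the same chromosomes, of which 8.69% were higher and 11.2% lower. The 201 other genes that the files annotate as C2H2 zinc finger factors had a median of -0.18, with 10 called higher and 22 called lower.

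**Figure D1:**
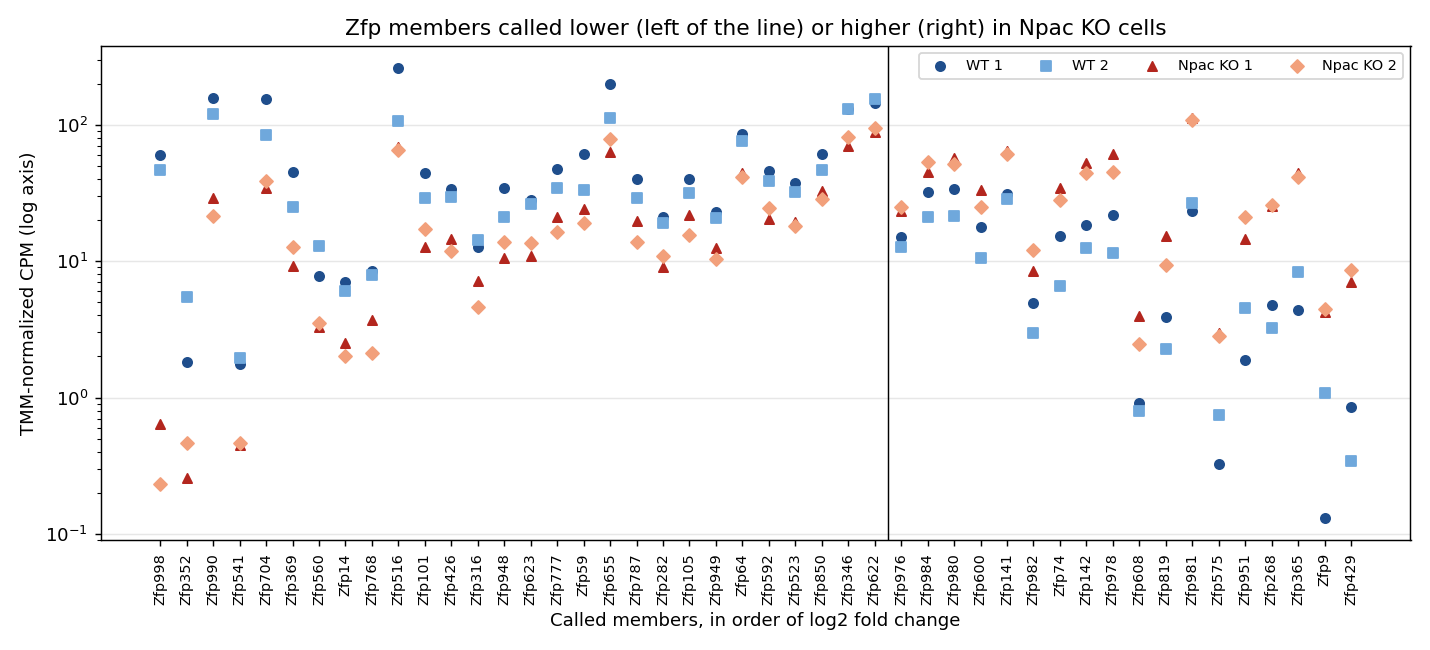
Normalized expression of the called Zfp genes, with the gene on the horizontal axis in order of log2 fold change and TMM-normalized CPM on a logarithmic vertical axis. Each point is 1 library, and the vertical line separates the 28 genes called lower from the genes called higher. Zfp872 is left out because WT1 had 0 reads. Zfp998, first in this order, had 60.1 and 46.3 CPM in WT1 and WT2 against 0.643 and 0.230 CPM in KO1 and KO2.

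The median rested on the WT1 library. Each gene's log2 CPM was set against its mean over the 4 libraries, and the median over the Zfp genes was 0.24 in WT1, against -0.078 in WT2, -0.082 in KO1 and -0.13 in KO2. WT1 was the highest library for 151 of the 308 genes. Zfp genes took 1.08% of all reads in WT1 but 0.886%, 0.853% and 0.867% in WT2, KO1 and KO2. The WT libraries differed by over 1.5-fold in 102 Zfp genes and the KO libraries in 28. On the log2 scale, the median difference WT1 minus WT2 was 0.27 over Zfp genes and -0.0091 over all genes. Over the 201 other genes annotated as C2H2 zinc finger factors it was 0.34, so it was not particular to the Zfp genes. The median log2 fold change of the Zfp genes was -0.023 without WT1 and -0.35 without WT2. A lower level of Zfp genes as a group was therefore within the difference between the WT libraries. In bulk RNA, fewer cells that express a gene and less RNA per cell cannot be told apart.

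**Figure D2:**
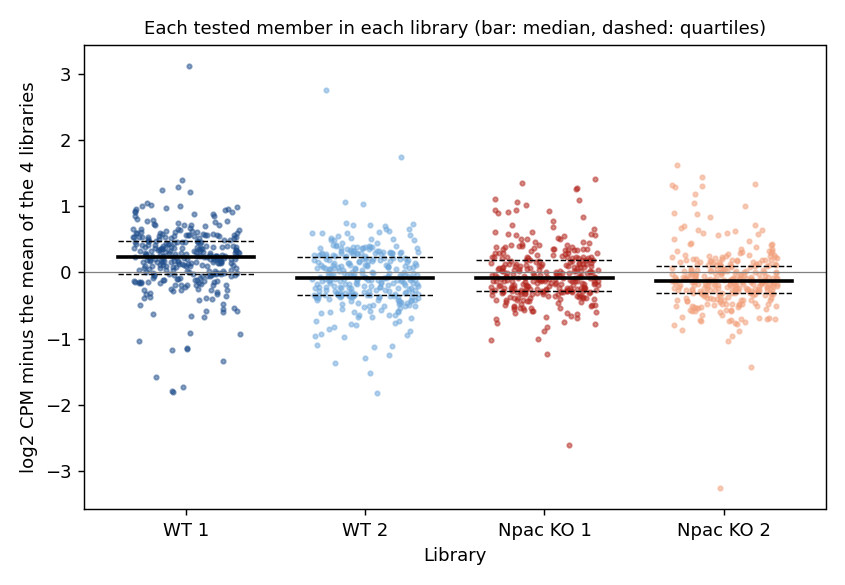
Each of the 308 tested Zfp genes in each library, as log2 CPM minus the mean of the 4 libraries on the vertical axis and the library on the horizontal axis. Solid bars are medians and dashed bars quartiles. The median of WT1 (0.24) lies above those of the other 3 libraries, which lie between -0.13 and -0.078.

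Among the genes called higher, 15 of 19 had a KRAB pattern and 15 lay in clusters. Among the genes called lower, 14 of 28 had a KRAB pattern and 16 lay in clusters. Counted over all tested genes of each kind, 15 of 185 genes with a KRAB pattern were higher and 14 lower (median -0.17), and 4 of 123 without it were higher and 14 lower (median -0.32). Inside clusters, 15 of 211 genes were higher and 16 lower, and outside clusters 4 of 97 were higher and 12 lower. By fingers, 3 of 38 genes with 0 to 3 fingers were higher and 3 lower, against 8 and 14 of 138 with 4 to 11 fingers and 8 and 11 of 132 with 12 or more. Over all genes tested, 10.9% were higher and 10.7% lower. The differences between these kinds were not tested, and genes of a cluster share sequence and neighbourhood. The kinds also differed in level. The median of the mean read count was 179 with a KRAB pattern and 436 without it, and 192.5 inside clusters and 403 outside. The part of level in these counts was not tested.

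The largest fall was that of Zfp998 (ENSMUSG00000074832), a KRAB gene with 14 fingers on chromosome 13 from 66566173 to 66589179. WT1 and WT2 held 919 and 811 reads of it, KO1 and KO2 only 10 and 4. This is 53.2 ± 9.75 CPM in WT against 0.436 ± 0.291 CPM in KO cells (SD, n = 2 each), or 122-fold lower (log2 fold change -6.93, standard error 0.42, adjusted p = 0.000169). The KO clones each kept few reads, and the groups were far apart. Gm26754, a long noncoding RNA gene on the other strand that spans all of Zfp998, also fell (38 and 82 reads in WT cells, 1 and 1 in Npac KO cells). Whether the counting used strand is not given in the sources used here, and the overlap is one of whole gene spans. Whether Zfp998 and Gm26754 share exons, so that reads of one could be counted for the other, was not tested. The tested genes whose starts lie nearest on either side were Vmn2r-ps104 (40, 34, 37 and 50 reads in WT1, WT2, KO1 and KO2), which was not called, and Gm26806 (8, 6, 82 and 80 reads), which rose. The next tested gene beyond Vmn2r-ps104, Gm46426 (105, 107, 4 and 3 reads), fell by 4.88 on the log2 scale.

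Among genes with a mean of at least 50 reads, Zfp990 (ENSMUSG00000078503) followed, the first gene of the chromosome 4 cluster and, per length, the most highly expressed of the called genes in WT cells. It had 44.4 and 34.3 FPKM (fragments scaled by gene length and library size) in WT cells and 8.30 and 6.07 FPKM in Npac KO cells, from 2386, 2117, 453 and 374 reads. On the log2 scale it fell by 2.45 (standard error 0.24, adjusted p = 0.00114). Zfp704, whose protein held a single finger of the pattern, fell from 2365 and 1472 reads to 540 and 672 (log2 fold change -1.70, adjusted p = 0.00854). Both KO libraries were well below the WT libraries, which themselves differed. C030034L19Rik, a noncoding gene on the other strand of Zfp704, also fell, by 4.17 on the log2 scale. Whether its exons overlap those of Zfp704, so that reads could be confused, was not tested. Zfp516, a regulator of brown fat genes, had 3965 and 1858 reads in WT cells and 1076 and 1140 in Npac KO cells (log2 fold change -1.44, adjusted p = 0.0318), and its log2 fold change was -0.68 without WT1.

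The largest rise with a mean of at least 50 reads was that of Zfp429 (ENSMUSG00000078994), a KRAB gene with 10 fingers on chromosome 13 from 67536024 to 67547938. It had 13 and 6 reads in WT cells and 110 and 150 reads in Npac KO cells, which is 0.596 ± 0.359 and 7.85 ± 1.11 CPM (SD, n = 2 each). On the log2 scale the rise was 3.72 (standard error 0.53, adjusted p = 0.00472). From nearly silent in WT cells, it reached a low level in both clones. Its neighbours in the same cluster, Zfp456 (69, 87, 36 and 30 reads in WT1, WT2, KO1 and KO2) and Zfp459 (207, 202, 360 and 239 reads), chosen after their values were seen, were not called. Zfp872, a KRAB gene of chromosome 9, had 0 and 1 reads in WT cells and 11 and 33 in Npac KO cells, and was tested only because the KO libraries passed the count limit.

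Zfp365, a gene with a role in the response to DNA damage and no finger of the C2H2 pattern, rose from 67 and 145 reads to 686 and 714 (log2 fold change 2.74, adjusted p = 0.00247). Zfp951, a KRAB gene of chromosome 5 outside the clusters, rose from 29 and 80 reads to 226 and 365 (log2 fold change 2.45, adjusted p = 0.0110). Zfp142, with 37 fingers the called gene with the longest array, rose from 282 and 217 reads to 817 and 769 (log2 fold change 1.65, adjusted p = 0.0061). In all 3 genes the KO libraries lay above both WT libraries, and the WT libraries of Zfp365 and Zfp951 differed by over 1.5-fold. With any single library left out, Zfp429, Zfp365, Zfp268, Zfp951, Zfp981 and Zfp142 were still called higher, and Zfp998, Zfp990 and Zfp704 were still called lower. With a KO library left out few other genes passed, with 7 or 8 Zfp genes called higher and 3 or 4 called lower.

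The chromosome 4 cluster (145237329 to 147932823 in the authors' files) held 19 Zfp genes, all of which had a KRAB pattern and were tested. In Npac KO cells, 7 of them were higher, 1 was lower, and the median log2 fold change was 0.61. In 10 of the 19 genes both KO values exceeded both WT values. Of all genes tested, 10.9% were called higher, 10.7% were called lower, and 33.1% had both KO values above both WT values. The cluster held more Zfp genes called higher than any other cluster, since no other held more than 3. The median was 1.06 without WT1, 0.34 without WT2, 0.43 without KO1 and 0.76 without KO2. The number called higher was 9, 7, 2 and 3 in the same order, and Zfp268 and Zfp981 were the 2 called without KO1. Among the 27 other tested genes between its first and last Zfp gene, 3 were higher and 3 were lower (median 0.19).

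**Figure D3:**
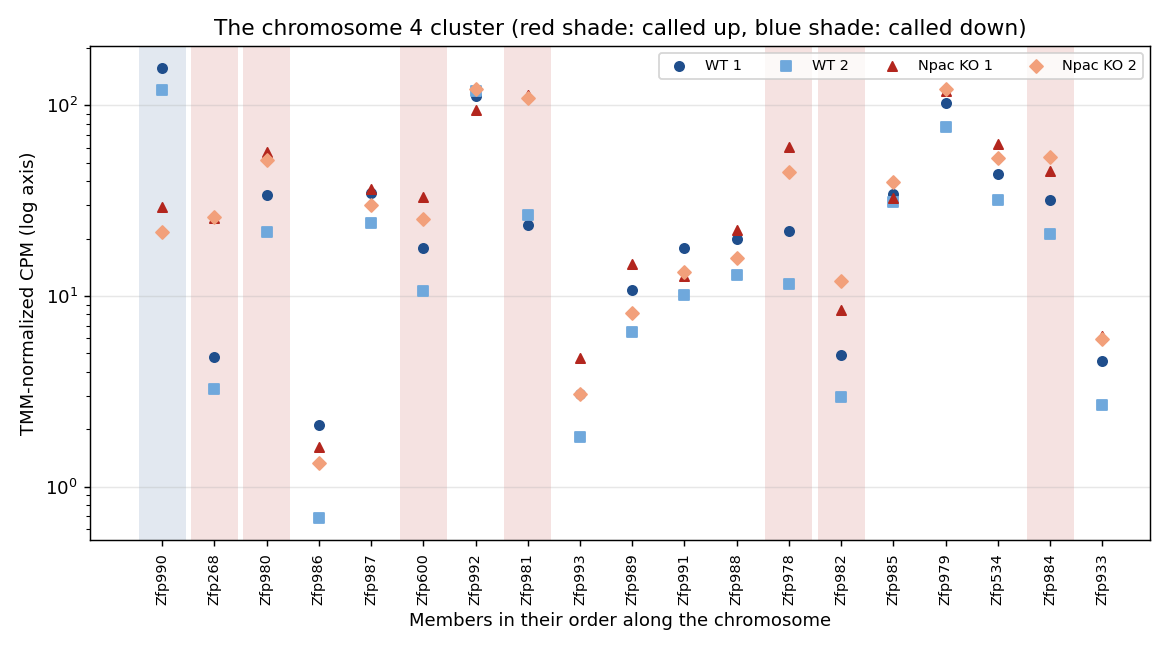
Expression of the 19 Zfp genes of the chromosome 4 cluster, placed in their order along the chromosome on the horizontal axis, as TMM-normalized CPM on a logarithmic vertical axis. Each point is 1 library, with red shading for the 7 genes called higher and blue shading for Zfp990, called lower. Zfp990 and Zfp268, next to each other at the left, moved in opposite directions.

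Zfp268, the Zfp gene next to Zfp990, rose most in this cluster. It had 73 and 57 reads in WT cells and 397 and 449 reads in Npac KO cells, which is 4.01 ± 1.07 and 25.7 ± 0.256 CPM (SD, n = 2 each, log2 fold change 2.68, standard error 0.30, adjusted p = 0.00208). Their starts lay 74.4 kb apart, and Zfp990 fell by 2.45 on the log2 scale over the same comparison. Gm13228, a tested gene that starts between them, 10.6 kb from the start of Zfp268, also fell. It had 43, 176, 0 and 3 reads in WT1, WT2, KO1 and KO2 (log2 fold change -6.04). Zfp981 rose from 359 and 464 reads to 1761 and 1894 (log2 fold change 2.15, adjusted p = 0.00082), with close values within each group. The noncoding gene 1700095A21Rik on its other strand rose as well, from 6 and 11 reads to 26 and 78, and whether they share exons was not tested. Zfp978 rose from 336 and 202 reads to 944 and 777 (log2 fold change 1.66, adjusted p = 0.0132) and was not called without KO1. Its transcript was 95.6% identical to Zfp600 over 96.9% of its length, and summed with its near-identical copies it rose by 1.03 on the log2 scale (adjusted p = 0.0398).

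The other genes called higher there rose by smaller amounts. Zfp982, which has been linked to the maintenance of ES cells, had 75 and 52 reads in WT cells and 132 and 209 in Npac KO cells (log2 fold change 1.38). Zfp600 had 273 and 186 against 514 and 437 reads (1.03), Zfp980 had 519 and 377 against 887 and 896 (0.97), and Zfp984 had 489 and 372 against 706 and 924 (0.89). Their adjusted p-values lay between 0.0324 for Zfp980 and 0.0488 for Zfp600, and none of these 4 was called when either KO library was left out. Zfp600 also missed the threshold in a robust fit (adjusted p = 0.0505), in a fit of protein-coding genes only (0.0532) and with limma-trend on FPKM (0.0735 and 0.0783). Zfp992, the cluster gene with the most reads, had 1719 and 2076 reads in WT cells and 1470 and 2110 in Npac KO cells, with overlapping groups. Among the 11 genes of the cluster whose own transcript had no near-identical copy, 6 were higher and 1 was lower, and among the 8 with a copy 1 was higher. The 11 take in Zfp600 and Zfp992, which are themselves the closest copies of Zfp978 and Zfp991, so reads of these may be shared too.

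The chromosome 13 cluster (65426628 to 67975121) held 22 Zfp genes, 21 of them tested, and its called genes lay in both directions. Zfp429 rose and Zfp998 fell, as above, and Zfp369 fell from 692 and 438 reads to 144 and 220 (log2 fold change -1.68, adjusted p = 0.0136). In 7 genes both KO values exceeded both WT values, in 6 both were below, near the 33.1% and 32.5% of all genes. The median was -0.19, and it was 0.29 without WT1 and -0.29 without WT2. The 61 other tested genes between the ends of this cluster, many of them noncoding or pseudogenes, had 12 called higher and 13 called lower. Zfp708, which binds a retroelement family, lies in this cluster and had no reads, and its transcript was 100% identical to Gm28557 over the part that aligned.

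In the chromosome 7 cluster from 41282627 to 43267709, 3 of 10 Zfp genes were higher and none was lower, against 10.9% and 10.7% of all genes tested. Zfp141 rose from 475 and 499 reads to 999 and 1063 (log2 fold change 1.07, adjusted p = 0.00887), with close values within each group. Zfp819, which is known to repress retroelements in pluripotent cells, rose from 60 and 40 reads to 238 and 163 (log2 fold change 1.99, adjusted p = 0.0167). Zfp976 rose from 230 and 221 reads to 363 and 430 (log2 fold change 0.80, adjusted p = 0.0497), the smallest rise and the largest adjusted p of the 19. The cluster's median was 0.18, since its other Zfp genes lay between -0.22 and 0.37, and it was 0.33 without WT1 and 0.0047 without WT2. Between the ends of this cluster, the 17 other tested genes had 2 called higher, none called lower and a median of 0.50.

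Other clusters leaned the other way. Of all genes tested, 32.5% had both KO libraries below both WT libraries, the share to set beside the counts here. In the chromosome 7 cluster from 27430814 to 28079678, all 6 genes were lower in each KO library than in either WT library, with a median of -0.68. Zfp59 (936 and 579 reads in WT cells, 374 and 332 in Npac KO cells) and Zfp850 (934 and 819 against 507 and 500 reads) fell, and the log2 fold change of Zfp59 was -0.65 without WT1. The 20 other tested genes of that stretch had none called in either direction and a median of 0.12. In the chromosome 6 cluster from 47796200 to 48600161, 7 of 9 genes had both KO libraries below, and Zfp282 (323 and 335 against 142 and 189 reads) and Zfp777 (724 and 606 against 328 and 282 reads) fell. Zfp746, its gene with the most reads, had a log2 fold change of -0.70 and was not called (adjusted p = 0.0670), but it was called under 3 of 15 other settings that used all libraries and without WT2. The 9 other tested genes of the chromosome 6 stretch had 2 called lower, none called higher and a median of -0.76. In the chromosome 9 cluster from 19533398 to 20516705, 4 of 6 genes had both KO libraries below, and Zfp560 (120 and 225 against 51 and 61 reads) and Zfp426 (518 and 519 against 225 and 207 reads) fell. The 1 other tested gene of that stretch was not called, with a log2 fold change of -2.13. Without WT1 the Zfp medians of these 3 clusters were -0.46, -0.69 and -0.57, and without WT2 they were -0.77, -0.62 and -1.02.

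**Figure D4:**
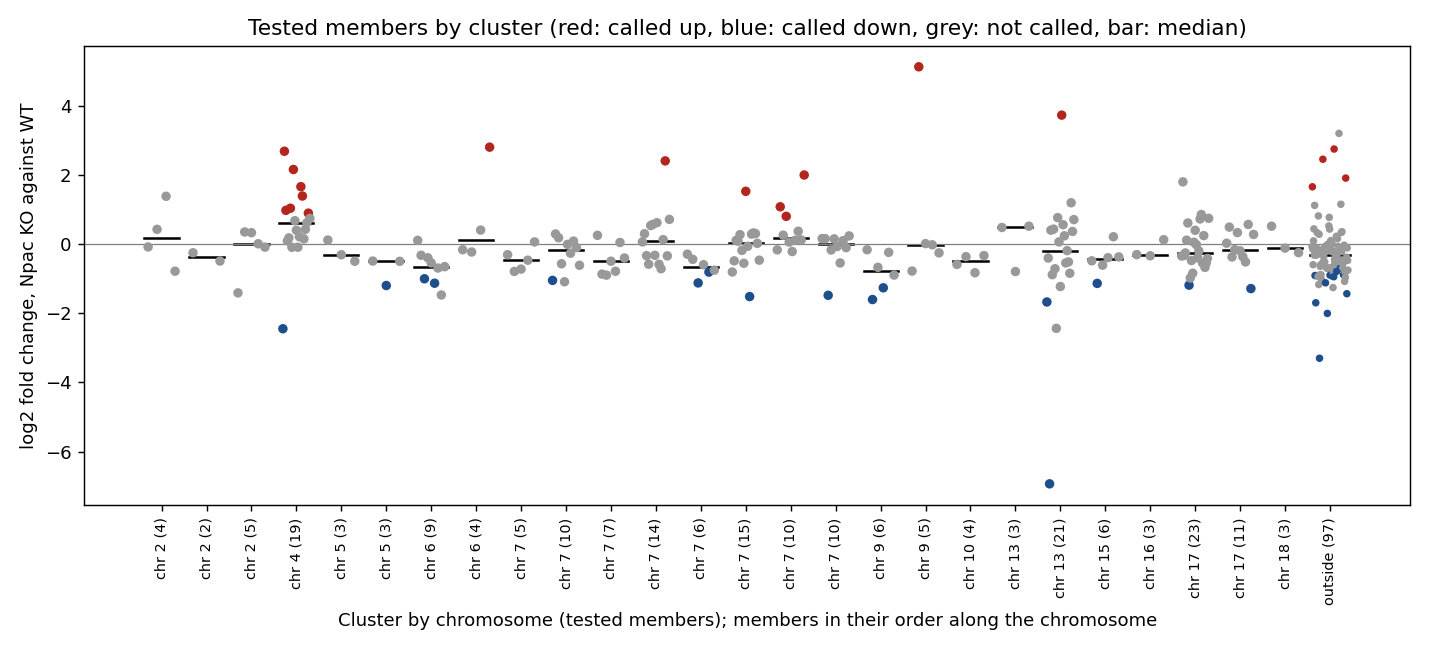
Log2 fold change of each tested Zfp gene, on the vertical axis, by genomic cluster on the horizontal axis, with the number of tested genes in brackets and the genes outside clusters at the right. Red points were called higher, blue points lower, grey points were not called, and the bars are medians. The chromosome 4 cluster, with a median of 0.61 and 7 red points, and the falling chromosome 7, 6 and 9 clusters, with medians of -0.68, -0.66 and -0.79, can be compared with the genes outside clusters at -0.32.

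Single genes were called in further clusters. Zfp9 (2 and 19 reads in WT cells, 66 and 78 in Npac KO cells) rose in a chromosome 6 cluster, with a log2 fold change of 2.80 that was 4.98 without WT2. Zfp575 (5 and 13 against 46 and 49 reads) and Zfp74 (234 and 116 against 540 and 488 reads) rose in chromosome 7 clusters. Zfp14, Zfp768, Zfp787, Zfp316, Zfp623, Zfp948 and Zfp101 fell, with log2 fold changes between -1.52 for Zfp14 and -1.05 for Zfp787. Each was the only Zfp gene called lower in its cluster, but others there could be lower without being called. Both KO libraries lay below both WT libraries in 3 of 3 tested genes of the Zfp316 cluster. The same held for 5 of 6 in the Zfp623 cluster, against 32.5% of all genes. The largest cluster, with 23 genes on chromosome 17 from 21229165 to 23818461, had Zfp948 as its only called gene (528 and 369 against 165 and 238 reads). Its gene with the most reads, Zfp229, had 91.9 and 36.7 CPM in WT against 39.4 and 32.1 CPM in KO cells, so that the groups overlapped.

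Zfp998, Zfp850 and Zfp141 had the most reads in their clusters, and in every other cluster with at least 3 tested genes the gene with the most reads was not called. Apart from those given above, the groups overlapped for Zfp120, Zfp931, Zfp157, Zfp110, Zfp568, Zfp646, Zfp809, Zfp938, Zfp871 and Zfp24, whose log2 fold changes lay between -0.50 for Zfp110 and 0.23 for Zfp646. The KO libraries lay below both WT libraries for Zfp12, Zfp239, Zfp865, Zfp574, Zfp317 and Zfp263, between -0.49 for Zfp12 and -0.17 for Zfp317. They lay above for Zfp444 (0.29), Zfp808 (0.48) and Zfp7 (0.21).

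Of 7 zinc finger genes that act in ES cells, 1 was called, Zfp982, which rose, as above. Of all genes tested, 21.6% were called in either direction, the share to set beside this list and those that follow. Zfp281, a repressor of Nanog, had 134 and 75.03 CPM in WT cells against 112 and 76.5 CPM without Npac. Zfp217 had 161 and 123 against 123 and 124 CPM, and Zfp143, which binds promoters and chromatin loop anchors, had 47.2 and 29.3 against 44.3 and 34.4 CPM. Zfp296, a partner of Klf4, had 24.1 and 30.3 against 21.9 and 32.1 CPM. In these 4 genes the groups overlapped. Zfp462, which keeps differentiation genes in heterochromatin, had 94.1 and 38.03 CPM in WT cells against 141 and 91.0 CPM without Npac (log2 fold change 0.81, adjusted p = 0.185). Zfp706, a factor of the exit from self-renewal, was lower in both KO libraries, at 136 and 144 against 184 and 202 CPM (log2 fold change -0.46, adjusted p = 0.0944).

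None of the 3 imprint regulators was called. Zfp57 had the highest level per length of all Zfp genes tested, with 200 and 135 FPKM in WT cells and 147 and 163 FPKM in Npac KO cells. Zfp568, which silences a placental Igf2 transcript, had 45.3 and 25.8 against 35.7 and 32.0 FPKM, and for both genes the KO libraries lay between the WT libraries. Zfp445 had 37.7 and 19.4 FPKM in WT cells and 15.4 and 17.0 FPKM in Npac KO cells (log2 fold change -0.81, adjusted p = 0.0902). It was called lower by DESeq2 (adjusted p = 0.0340), without a count filter (0.00267), with the replicate block (0.0232) and without WT2 (log2 fold change -1.21), and its log2 fold change was -0.28 without WT1. WT1 stood apart from the other 3 libraries in Zfp445, and both KO libraries lay below WT2.

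Among 5 tested genes linked to retroelement silencing, Zfp819 and Zfp600 rose, as above. Zfp809, which targets a retroviral primer binding site, had 39.2 and 22.7 CPM in WT against 33.5 and 28.9 CPM in KO cells. Zfp932, which has a near-identical copy in Gm15446, had 21.1 and 19.8 against 17.5 and 20.2 CPM, and Zfp638, a partner of the HUSH complex, had 165 and 109 against 117 and 125 CPM. The groups of these 3 genes overlapped. Of 20 tested genes of the machinery that KRAB zinc finger proteins recruit, Atf7ip and Hdac1 rose (log2 fold changes 1.73 and 1.44) and Smarcad1 fell (-1.31). Trim28 and Setdb1 were not called (0.13 and 0.27), and the median of the list was 0.19.

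Zfp352, a gene of the 2-cell embryo, fell from 28 and 95 reads to 4 and 8 (log2 fold change -3.30, adjusted p = 0.0179). Among 9 tested genes that mark 2-cell-like cells, a small fraction of ES cell cultures, Usp17lc, Tcstv3, Tdpoz3 and Tdpoz4 fell and none rose. Their summed level was 29.8 and 82.6 CPM in WT against 3.41 and 23.8 CPM in KO cells, so WT2 was highest for both Zfp352 and this list. The part of such cells in the fall of Zfp352 was not tested. Zfp352 has a near-identical copy in Zfp353-ps, and summed with it the log2 fold change was -3.62. Trophectoderm markers, of which Krt18 and Tfap2c rose, summed to 104 and 110 CPM in WT against 264 and 235 CPM in KO cells, and their part in the changes of Zfp genes was not tested.

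Of 7 genes listed as RNA or translation factors, a list that also took in the SUMO ligase Zfp451, 2 were lower and none was higher. Zfp346 (JAZ), which binds double-stranded RNA, had 130 and 131 CPM in WT against 69.6 and 81.2 CPM in KO cells (log2 fold change -0.79, adjusted p = 0.0204). Zfp622, a factor of large ribosomal subunit maturation, had 144 and 154 against 89.1 and 94.7 CPM (log2 fold change -0.70, adjusted p = 0.0274). In both genes the WT libraries were close to each other and the KO libraries lay well below. Zfp598, the ubiquitin ligase of collided ribosomes, Zfp36 (tristetraprolin), which promotes mRNA decay, and Zfp326, a factor at the interface of elongation and splicing, were lower in both KO libraries without being called, with log2 fold changes of -0.55, -0.76 and -0.52. Zfp106, an RNA-binding protein, was higher in both (0.44, adjusted p = 0.136), and Zfp451, a SUMO ligase, had overlapping groups (-0.082).

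Among 6 partners of chromatin complexes, Zfp592 fell from 45.7 and 38.4 CPM to 20.4 and 24.5 CPM (log2 fold change -0.90, adjusted p = 0.0249). Zfp687 and Zfp532 belong to the same complex as Zfp592, with Zmynd8. Zfp532 was lower in both KO libraries (log2 fold change -0.79, adjusted p = 0.0741), while Zfp687 had 82.7 and 55.2 against 66.4 and 59.98 CPM. Zfp644, a partner of G9a, Zfp618 and Zfp219 were not called, at -0.36, 0.28 and -0.17.

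Among 9 genes with roles in development, Zfp608 rose from 14 and 14 reads to 62 and 43 (log2 fold change 1.90, adjusted p = 0.0361). Its paralog Zfp609 had 151 and 78.0 CPM in WT against 126 and 102 CPM in KO cells, a log2 fold change of -0.0027, with both KO libraries between the WT libraries. Zfp521 was lower in both KO libraries (92 and 48 against 39 and 34 reads, adjusted p = 0.206). Zfp503, Zfp536, Zfp335, Zfp407, Zfp292 and Zfp148 had overlapping groups and log2 fold changes between -0.69 for Zfp536 and -0.11 for Zfp407.

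RefSeq promoter windows were matched to 266 of the 321 genes, 263 by symbol and 3 by gene ID. Each Zfp gene was given its first listed window, while the set of all windows was not limited to 1 per gene or to protein-coding genes. The median CpG observed over expected was 0.62 over the Zfp windows and 0.38 over all 32851 windows. It was 0.53 over the 15 windows of genes called higher, 0.62 over 218 of genes not called and 0.74 over 23 of genes called lower. The CCAAT box was in 11 of 15, 107 of 218 and 5 of 23 of these windows, which is 73.3%, 49.1% and 21.7%, against 37.4% of all windows. The GC box GGGCGG was in 9, 92 and 13 of them, or 60%, 42.2% and 56.5%, against 35.7% of all windows. TATAAA was in 1, 13 and 1 (13.6% of all windows), and GGAAGT was in 8, 90 and 9 (23.8% of all windows). The motifs were searched on both strands. The chromosome 4 run marked above for its GC box also holds, on the other strand, the box counted here just before the GC box. The 5 windows of genes called higher that hold this run are therefore among the 11 and among the 9 counted for these boxes. The run was also in 3 windows of genes of that cluster that were not called. Windows of 1 cluster share descent, as the printed sequences show, so they are not independent of each other, and the differences were not tested.

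**Figure D5:**
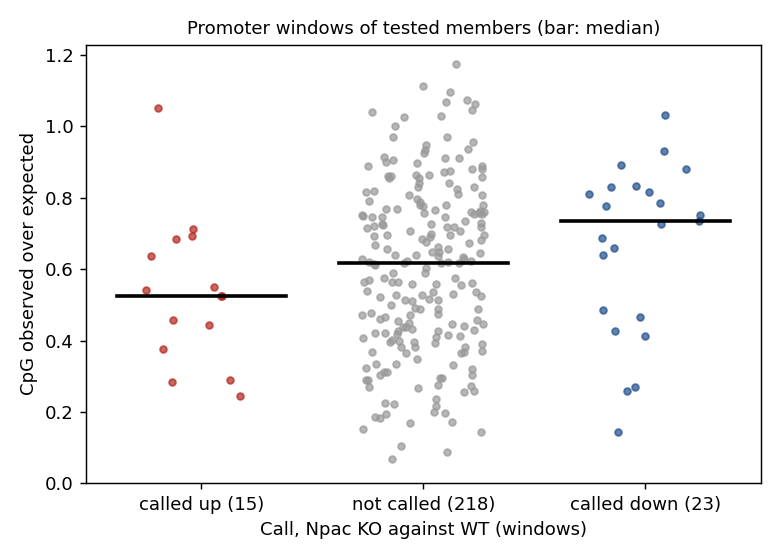
CpG observed over expected in the RefSeq promoter window of each tested Zfp gene with a window, on the vertical axis, by call in Npac KO against WT cells on the horizontal axis. Each point is 1 gene and bars are medians (0.53 called higher, 0.62 not called, 0.74 called lower). The ranges of the 3 groups overlap over most of the axis.

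Of the 47 called Zfp genes, 23 overlapped another listed gene in the authors' files, by whole gene span and on either strand, and in 12 cases an overlapping gene was tested. In 3 cases, Zfp998, Zfp704 and Zfp981, the overlapping gene was called in the same direction, and in none in the opposite direction.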

How the data were processed

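Total RNA of 2 WT and 2 Npac KO E14 libraries was sequenced. Per the labels (the submitters' processing notes), the authors mapped the reads with HISAT2, for which the sources name different versions, and counted them per gene with featureCounts 1.5.0-p3, and they deposited raw read counts without normalization. The authors also deposited FPKM, which the values show to be the counts divided by gene length and by 1 constant per library, and which served here for levels per length and for an alternative fit. Coordinates are as in the authors' files. The labels name mm10, but of 52073 genes shared with GENCODE M21 (GRCm38) 1485 had the same start, so no build is stated for them, and they cannot be set beside the RefSeq windows (GRCm38.p6).

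Counts of genes with at least 10 reads in at least 2 libraries (18310 genes) were normalized by TMM and fitted in R 4.3.3 with edgeR 4.0.16 (quasi-likelihood test, common biological coefficient of variation 0.236). Calls needed an adjusted p (Benjamini-Hochberg, over all genes tested) under 0.05 with a fold change over 1.5. CPM values are TMM-normalized, and log2 CPM was taken with a pseudocount of 0.5. WT1 and WT2 differed by a chi-square per Zfp gene of 32.0 and KO1 and KO2 by 8.66, more than counting error. The test was tested on simulated data. Fingers (C-X2-4-C-X12-H-X3-5-H) and the KRAB A box were searched in translated GENCODE coding sequences. The genes described, and the lists of ES cell, imprint, retroelement, RNA, chromatin, developmental, KRAB machinery and cell type marker genes, were chosen with earlier results of these data known. Genes were named by rule: the 8 largest rises and 8 largest falls with a mean of at least 50 reads, all tested members of the Zfp lists, the called genes and the gene with the most reads of each cluster, and the genes next to the count limit. Alternatives were DESeq2 1.42.0, limma 3.58.1, other normalizations, filters, gene sets, thresholds and cluster gaps, a replicate block and leaving out each library. Splicing was not analysed here.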

Additional observations from a re-analysis of the deposited data

How the results depend on the processing

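The counts of 19 higher and 28 lower Zfp genes were within 1.5 times under DESeq2 (22 and 34), RLE and upper-quartile normalization, a robust fit, other count filters, protein-coding genes only, and removal of a gene length or, added after the data were seen, GC content trend, and after summing near-identical copies, also added then. Limma-trend on log2(FPKM + 1) called 17 lower. An unadjusted p under 0.05 with a fold change over 1.5 gave 53 lower. With each library left out in turn, 7 to 34 Zfp genes were higher, 3 to 78 were lower, and the median log2 fold change was between -0.35 and -0.023, the last without WT1. The cause was not tested. Clusters numbered 26, 28 with a gap of 500 kb and 25 with 2 Mb.

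The replicate numbers are shared by label only. Over all genes, the deviations of WT1 and KO1 from their group means correlated at 0.34, with 2 pairs. A replicate block raised the calls to 29 higher and 52 lower Zfp genes, and those over all genes tested to 17.2% higher and 16.5% lower.

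Of the 41 called genes named, 27 were called under each of up to 15 other settings that used all libraries, and 9 with each library left out as well. None of them changed direction. Of the 51 named genes not called, 7 were called under some other setting that used all libraries and 15 with some library left out, which takes in those 7. Of genes near 0, the following changed sign without being called. Zfp609 was 0.044 under upper-quartile normalization, 0.0065 without a count filter, 0.064 with the replicate block, 0.041 over protein-coding genes outside chromosomes 8, 11, X and Y, 0.051 without the length trend, and 0.053 and 0.061 with limma-trend. Zfp296 was 0.023, 0.0035 and 0.030 under upper-quartile normalization, without a count filter and over that set of genes. Zfp503 was 0.036 with the replicate block and 0.061 with limma-trend on log2(FPKM + 0.1). Over protein-coding genes, Zfp809 was -0.021 and Zfp871 -0.0092. Without the length trend, Zfp809 was -0.042, Zfp451 0.025 and Zfp407 0.0074.

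With a library left out, these also changed sign. Zfp281 lay between -0.51 and 0.30, Zfp143 between -0.26 and 0.40, Zfp296 between -0.31 and 0.22, Zfp57 between -0.36 and 0.17, Zfp568 between -0.42 and 0.36, and Zfp809 between -0.33 and 0.43. Zfp638 lay between -0.45 and 0.12, Zfp451 between -0.23 and 0.057, Zfp687 between -0.39 and 0.17, Zfp644 between -0.79 and 0.22, Zfp503 between -0.94 and 1.66, Zfp335 between -0.54 and 0.067, and Zfp407 between -0.38 and 0.17. Zfp292 lay between -0.77 and 0.36, Zfp148 between -0.50 and 0.10, Zfp609 between -0.40 and 0.52, Zfp120 between -0.28 and 0.11, Zfp931 between -0.34 and 0.17, Zfp992 between -0.29 and 0.059, Zfp157 between -0.60 and 0.020, Zfp871 between -0.30 and 0.40, and Zfp24 between -0.49 and 0.0027.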

Other observations

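On chromosome 4, with 31 tested Zfp genes, the median log2 fold change of the Zfp genes was 0.18, against -0.028 over its other protein-coding genes, and it was negative on the other 16 chromosomes with Zfp genes. This order rested on the WT libraries. Without WT1 the median was 0.53 on chromosome 4 and above 0 on 6 chromosomes in all, and without WT2 it was -0.057 on chromosome 4 and above 0 on chromosome 14 only. On chromosome 9 the median was -0.68 over 18 Zfp genes and -0.18 over the other protein-coding genes, and on chromosome 5 it was -0.50 over 16 Zfp genes and 0.031 over the others. On chromosome 7, which held 88 tested Zfp genes, it was -0.089 against -0.014. Without WT1 and without WT2 the medians were -0.25 and -0.80 on chromosome 9, -0.44 and -0.58 on chromosome 5, and 0.012 and -0.26 on chromosome 7. These values are descriptions.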
